A study of Arabidopsis thaliana with 8 samples.

Results

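The glutathione S-transferase (GST) genes of Arabidopsis thaliana were followed in whole seedlings of tt8-3, a line that has lost the function of TT8, and of its wild-type background Ws (Wassilewskija), written WT here. A gene counted as a member when its symbol or a synonym was GST, a class letter U, F, L, T or Z and a digit. GSTF12 (TT19) was left out by the same rule. The rule gave 47 genes, of 25433 genes named on the array: 28 of the tau class (U), 11 of the phi class (F) and 8 of the lambda (L), theta (T) and zeta (Z) classes. A probe on the array was named for 46 of them, all but GSTU21. The test took in a gene if all 4 arrays of one line or the other had its brightest probe well above background, and 41 members passed: 24 tau, 10 phi, 3 lambda, 3 theta and 1 zeta gene. Each of these 41 exceeded the background clearly on all 8 arrays. GSTF5, GSTU14 and GSTU15 were above background on 0 arrays of either line, GSTU3 on 2 tt8-3 arrays and 1 WT array, and GSTZ2 on 1 tt8-3 array and 0 WT arrays, so that they were not tested. The filter thus passed no member through 1 line alone. Of the names used here, GSTU17 is listed in the gene table as ERD9, and GSTT1 also carries the synonym GSTU12 and was counted with the theta class. A phi gene listed only as ATGSTF13 falls outside the rule.

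Plant GSTs join the tripeptide glutathione to reactive or foreign molecules, and the conjugates are moved into the vacuole by ABC transporters. Tau and phi are the large plant classes, many of whose genes are induced by herbicides, oxidants, oxylipins and pathogens, and some members act in the synthesis of glucosinolates and camalexin or bind such molecules without joining glutathione to them. Lambda GSTs remove glutathione from other molecules, theta GSTs reduce organic peroxides, and zeta GSTs are isomerases of tyrosine breakdown. TT8 is a bHLH transcription factor that switches on genes for anthocyanins and proanthocyanidins.

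Both lines were grown on sugar-containing plates and harvested at 6 days, and no treatment is named. Total RNA was labelled with Cy3 and measured on 8 one-colour Agilent arrays, 4 of tt8-3 and 4 of WT, spread evenly over 2 slides. The design text gives 2 biological replicates per line and technical replicates on each slide, without saying which arrays share a plant sample. The 2 arrays of a line on 1 slide were averaged, since their descriptions number them together, so each comparison below has n = 2 slide averages per line. Replicates 1 and 2 lay on slide 1 and replicates 3 and 4 on slide 2. Replicates 1 and 3 are called the first arrays of a line and replicates 2 and 4 its second arrays. WT took the first positions on each slide and tt8-3 the later ones, so position and genotype cannot be told apart. TT8 itself was detected above background on 0 of 4 arrays in tt8-3, against 4 of 4 in WT, and was at least 1520-fold lower in tt8-3 (log2 levels -6.40 ± 0.86 in tt8-3 and 4.29 ± 0.06 in WT, SD, n = 2 each). Levels are processed signals divided by the 75th percentile of their array (545 to 1108 intensity units) and given as log2, differences are tt8-3 minus WT, and no level is set against that of another gene.

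Of the 41 GST genes, 2 were higher and 9 were lower in tt8-3 at an adjusted p under 0.05 (limma, Benjamini-Hochberg over 19225 genes). The share higher was 4.88%, against 15.7% of all genes tested, and the share lower was 22.0%, against 11.0%. The 2 higher genes were GSTU8 (tau) and GSTF10 (phi). The lower ones were GSTU9, GSTU11, GSTU12, GSTU17, GSTU22, GSTU24, GSTU25 and GSTU27, all tau, and GSTL1 (lambda). By class, 1 tau gene was higher and 8 lower of 24, 1 phi gene was higher and 0 lower of 10, and 0 were higher and 1 lower among the 7 lambda, theta and zeta genes. The median log2 difference was -0.31 for tau, -0.15 for phi and 0.07 for the other classes, against 0.01 for all genes tested. Of the 24 tau genes 19 had a negative difference, of the 10 phi genes 5, and of the 7 others 2, against 9433 of the 19225 genes tested. With first arrays set against first and second against second, 12 tau genes were negative in both, against 6351 of all genes. The tau median was -0.13 against WT replicates 1 and 3 alone and -0.41 against WT replicates 2 and 4 alone. In RNA from whole seedlings, fewer cells of a type and less RNA per cell cannot be told apart.

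**Figure D1:**
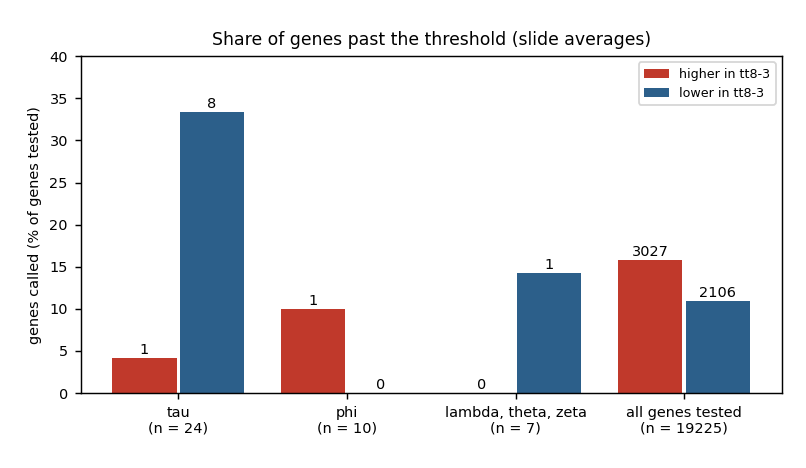
Percent of genes past the threshold in each GST class and among all genes tested, for genes higher (red) and lower (blue) in tt8-3, with the number of genes above each bar. The tau bar for lower genes stands for 8 of 24 genes, and the phi class has 0 lower genes of 10.

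The reading of the technical replicates decides most of these calls. The design text also allows the first arrays of both slides, and likewise the second arrays, to be 1 biological sample. With arrays averaged that way, GSTU8 was higher (limma adjusted p = 0.032) and 0 members were lower, against 2.74% of all genes higher and 0.380% lower. With slide as a block in the slide averages, 9 members were higher and 20 lower, against 33.8% and 30.7% of all genes. The plot of member differences marks the gene called under both averagings.

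**Figure D2:**
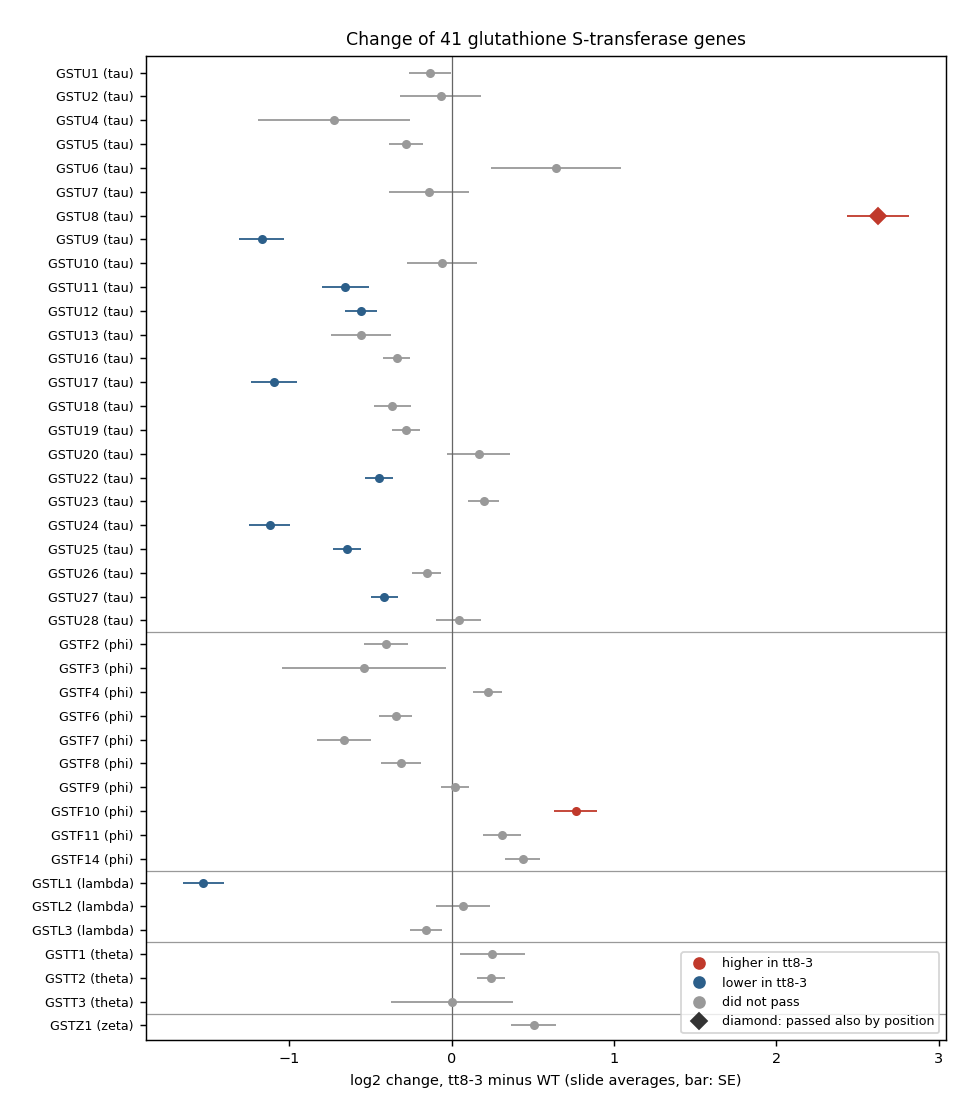
Log2 difference (tt8-3 minus WT) with its standard error for the 41 GST genes, grouped by class, from 2 slide averages per line. Red genes were higher, blue genes lower and grey genes past no threshold, and the diamond is GSTU8, called also with arrays averaged by position.

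GSTU8, a tau gene, had the largest difference of the 41. Its log2 levels in replicates 1 to 4 were -1.07, -1.11, -1.23 and -1.51 in tt8-3, against -3.13, -4.16, -3.73 and -4.40 in WT. All 4 tt8-3 arrays lay above all 4 WT arrays, and the lowest tt8-3 array was far above the highest WT array. GSTU8 was 6.18-fold higher in tt8-3 (log2 difference 2.63, SE 0.19, limma adjusted p = 0.0054), with 2.56 on slide 1 and 2.70 on slide 2. The call held in all 12 fits that left out 1 array or 1 slide average, and against either pair of WT arrays (2.20 against replicates 1 and 3, 3.05 against replicates 2 and 4). With normexp background correction fitted on all spots, a setting under which 91 genes were higher and 14 lower in all, the difference was 1.82 (limma adjusted p = 0.065). With the spots of flagged local background left out of that correction it was 1.64 (limma adjusted p = 0.0069). The size of the GSTU8 difference thus depended on the background correction.

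GSTF10, a phi GST known to bind the receptor kinase BAK1, was the other higher gene. Its levels were 4.49, 4.62, 4.34 and 4.36 in tt8-3, against 3.89, 3.70, 3.72 and 3.45 in WT. The lines did not overlap, and tt8-3 was higher by 0.76 on slide 1 and 0.77 on slide 2. GSTF10 was 1.70-fold higher (log2 difference 0.76, SE 0.13, limma adjusted p = 0.024). The adjusted p was 0.093 by position, 0.054 without WT replicate 2, 0.095 without the WT average of slide 2 and just over the threshold at 0.050 without the tt8-3 average of slide 1. GSTF9, its neighbour on chromosome 2, had a difference of 0.02 (SE 0.09, adjusted p = 0.88), and its 3 probes gave 0.02, -0.04 and -0.09.

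Among the lower genes, GSTU17 is a tau gene first found as an early dehydration-responsive transcript and known to act in light and drought responses. Its levels were 0.77, 0.91, 0.53 and 0.57 in tt8-3, against 1.97, 1.76, 1.84 and 1.56 in WT. Every tt8-3 array was below every WT array. GSTU17 was 2.13-fold lower (log2 difference -1.09, SE 0.14, limma adjusted p = 0.014), its 3 probes gave -1.09, -1.11 and -0.97, and the call held in all 12 fits with an array or average left out. By position its adjusted p was 0.051, just above the threshold. Its neighbour GSTU18 had a difference of -0.37 (adjusted p = 0.085).

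GSTL1, a lambda GST, had levels of -5.42, -5.48, -5.67 and -5.43 in tt8-3, against -4.35, -3.33, -4.72 and -3.48 in WT. The 4 tt8-3 arrays lay close together and below all WT arrays, while the second WT arrays were more than 1 log2 unit above the first ones. GSTL1 was 2.89-fold lower in tt8-3 (log2 difference -1.53, SE 0.13, limma adjusted p = 0.0066). The call held in all 12 fits with an array or average left out, and not by position (adjusted p = 0.12). GSTL1 is a dim probe, and under the normexp correction its difference turned to 0.07 (adjusted p = 0.93). With the spots of flagged local background left out of that correction it was -0.67 (adjusted p = 0.080). Its neighbour GSTL3 had -0.16 and GSTL2 0.07, neither past the threshold.

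GSTU27 had levels of 0.37, 0.58, 0.37 and 0.62 in tt8-3, against 0.91, 0.87, 0.90 and 0.92 in WT. The WT arrays were nearly equal and all above tt8-3, in which the second arrays were the higher ones. GSTU27 was 1.33-fold lower (log2 difference -0.42, SE 0.08, limma adjusted p = 0.032). GSTU22 had levels of -1.64, -1.40, -1.76 and -1.35 in tt8-3, against -1.30, -0.83, -1.33 and -0.90 in WT, again without overlap. GSTU22 was 1.37-fold lower (-0.45, SE 0.08, limma adjusted p = 0.029). Each of these calls passed in 2 of the 12 fits with an array or average left out, those without tt8-3 replicate 2 or 4. Over the 12 fits the difference of GSTU27 stayed between -0.48 and -0.35 and that of GSTU22 between -0.57 and -0.33.

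**Figure D3:**
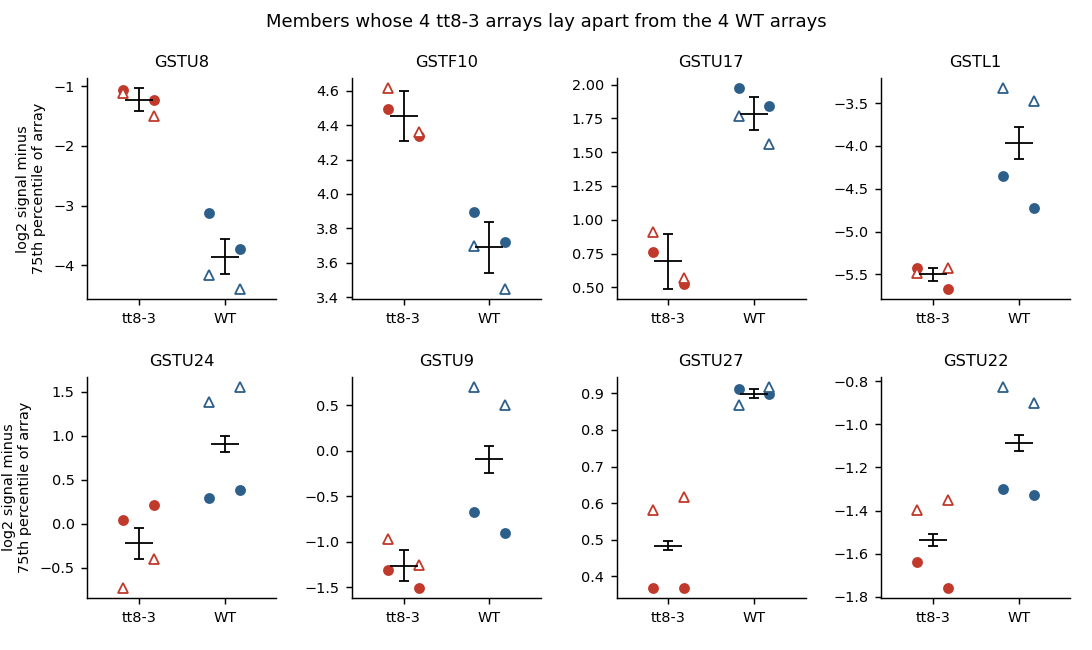
Log2 level of 8 GST genes on each array, tt8-3 left (red) and WT right (blue), with circles for replicates 1 and 3, open triangles for replicates 2 and 4, and a bar for the mean ± SD of the 2 slide averages. In every panel the 4 tt8-3 arrays lie apart from the 4 WT arrays, and in GSTL1, GSTU24, GSTU9 and GSTU22 the 2 WT triangles lie above the 2 WT circles.

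GSTU24 and GSTU9 were lower in tt8-3 and uneven in WT. GSTU24, a tau GST known to conjugate the explosive TNT and to be induced by many foreign chemicals, had levels of 0.04, -0.73, 0.21 and -0.40 in tt8-3, against 0.29, 1.38, 0.38 and 1.55 in WT. The 2 second WT arrays were far above the rest, and the first WT arrays only just above the highest tt8-3 array. GSTU24 was 2.18-fold lower (log2 difference -1.12, SE 0.13, limma adjusted p = 0.011). Against WT replicates 1 and 3 alone the difference was -0.56 (limma adjusted p = 0.033), and without WT replicate 2 it was -0.85 (adjusted p = 0.083). GSTU9 had levels of -1.31, -0.97, -1.51 and -1.26 in tt8-3, against -0.68, 0.70, -0.90 and 0.51 in WT. The same split of the WT arrays appeared, with no overlap between lines. GSTU9 was 2.25-fold lower (-1.17, SE 0.14, limma adjusted p = 0.012), but its adjusted p was 0.058 without WT replicate 2, 0.13 without WT replicate 4 and 0.066 against WT replicates 1 and 3 alone.

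The remaining 3 lower genes, GSTU25, GSTU11 and GSTU12, overlapped between lines. GSTU25, which also conjugates TNT, had levels of -3.0, -2.68, -3.04 and -2.66 in tt8-3, against -3.11, -1.38, -2.99 and -1.32 in WT. The first WT arrays were level with tt8-3 and the second WT arrays were higher. Its slide averages gave a 1.56-fold lower value (log2 difference -0.64, SE 0.09, limma adjusted p = 0.015), whereas WT replicates 1 and 3 alone gave 0.21 (limma adjusted p = 0.18) and WT replicates 2 and 4 alone gave -1.49 (adjusted p = 0.0032). GSTU12 behaved alike, with -2.51, -2.74, -2.50 and -2.82 in tt8-3 and -2.54, -1.45, -2.67 and -1.66 in WT (difference -0.56, SE 0.10, limma adjusted p = 0.026; -0.04 against the first WT arrays). GSTU11, its neighbour on chromosome 1, changed direction. Its levels were -2.18, -2.48, -2.43 and -2.71 in tt8-3, against -2.90, -0.43, -3.11 and -0.73 in WT, so that tt8-3 lay between the 2 pairs of WT arrays. The slide averages gave -0.66 (SE 0.15, limma adjusted p = 0.041), the first WT arrays alone gave 0.56 (adjusted p = 0.043) and the second WT arrays alone gave -1.87 (adjusted p = 0.0051). Without WT replicate 2 the differences of GSTU25, GSTU12 and GSTU11 were -0.21, -0.29 and -0.04, and without WT replicate 4 they were -0.23, -0.31 and -0.06, with no call. Leaving out WT replicate 1 ended these 3 calls too (-1.08, -0.83 and -1.27), as did leaving out the WT average of either slide, and leaving out WT replicate 3 ended those of GSTU25 and GSTU11. On the tt8-3 side, the GSTU11 call ended without replicate 2, replicate 3 or the average of slide 2, and the GSTU12 call without replicate 4 or either average.

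The split between the 2 WT arrays of a slide ran through the family. The second array of a line differed from the first by more than 1 log2 unit, in the same direction on both slides, in 0 of the 41 GST genes in tt8-3 and in 13 of them, or 31.7%, in WT. Over all genes tested the shares were 0.536% in tt8-3 and 4.82% in WT. The second WT array was the higher one for GSTF6, GSTF7, GSTL1, GSTU1, GSTU4, GSTU9, GSTU10, GSTU11, GSTU12, GSTU24 and GSTU25, and the lower one for GSTF11 and GSTU20. The median absolute gap between the arrays of a slide was 0.27 in tt8-3 and 0.53 in WT over the GST genes, and 0.12 in tt8-3 and 0.31 in WT over all genes. WT arrays with the same place on the 2 slides were closer, with median absolute gaps of 0.16 between replicates 1 and 3 and 0.19 between replicates 2 and 4 over the GST genes. Over all genes these gaps were 0.14 and 0.16. The source of the split was not tested.

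GSTF6, a phi GST of camalexin synthesis, had levels of 3.24, 2.65, 3.10 and 2.56 in tt8-3, against 2.30, 4.03, 2.63 and 3.97 in WT. All tt8-3 arrays lay between the WT pairs, except that 1 of them was just under the higher first WT array. The slide averages gave -0.35 (limma adjusted p = 0.075). GSTF7, a pathogen-induced phi gene beside it on chromosome 1, had -1.25, -1.92, -1.04 and -1.74 in tt8-3, against -1.73, -0.29, -1.34 and 0.06 in WT. Here tt8-3 was level with the first WT arrays (0.04, limma adjusted p = 0.86) and below the second ones (-1.37, adjusted p = 0.010). GSTF2, an auxin- and camalexin-binding GST, followed with a gap under 1 log2 unit: -0.03 against the first WT arrays and -0.77 against the second (limma adjusted p = 0.023).

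GSTF11 and GSTU20 ran the other way. Both are known from the synthesis of glucosinolates derived from methionine, and GSTU20 also binds the jasmonate-conjugating enzyme FIN219. GSTF11 had levels of -2.19, -1.57, -2.19 and -1.88 in tt8-3, against -1.04, -3.32, -1.21 and -3.51 in WT. The tt8-3 arrays lay between the high first WT arrays and the low second ones. The slide averages gave 0.31 (limma adjusted p = 0.12), the first WT arrays alone -0.84 (adjusted p = 0.012) and the second alone 1.46 (adjusted p = 0.0051). GSTU20 had 3.14, 3.04, 3.49 and 3.32 in tt8-3, against 3.76, 2.01, 3.92 and 2.64 in WT. It gave -0.59 against the first WT arrays (limma adjusted p = 0.043) and 0.92 against the second (adjusted p = 0.063). GSTF14 showed a smaller split of this kind, with -0.01 against the first WT arrays and 0.88 against the second (limma adjusted p = 0.011).

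**Figure D4:**
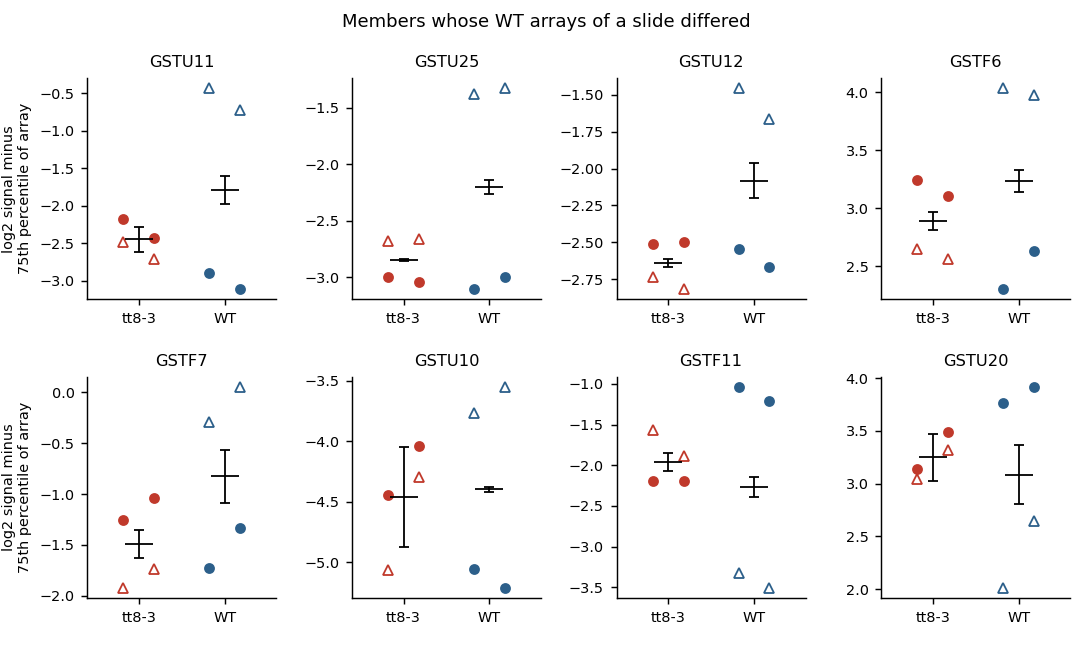
Log2 level on each array of 8 GST genes in which the WT arrays of a slide differed by more than 1 log2 unit, tt8-3 left (red) and WT right (blue), with circles for replicates 1 and 3 and open triangles for replicates 2 and 4. The bars are the mean ± SD of the 2 slide averages, and the WT triangles lie above the WT circles in all panels but those of GSTF11 and GSTU20.

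The counts followed the WT arrays used. Against WT replicates 1 and 3 alone, 5 members were higher and 9 lower, against 18.5% and 15.2% of all genes tested. Of the 11 calls made with all arrays, 6 remained: GSTU8, GSTF10, GSTU17, GSTU24, GSTU27 and GSTL1. Against WT replicates 2 and 4 alone, 4 members were higher and 14 lower, against 16.5% and 11.7%, and all 11 calls remained. In 25 of the 41 genes the direction was the same against both pairs of WT arrays, a count not made over all genes. The comparisons with either pair share their tt8-3 arrays and were added after the split had been seen. With first arrays set against first and second against second, directions were opposite in 43.9% of members and 30.2% of all genes tested. Leaving out WT replicate 2 gave 1 higher and 2 lower members, against 9.57% and 5.05% of all genes, and leaving out WT replicate 4 gave 3 and 3, against 10.1% and 5.36%. Without WT replicate 1 there were 2 and 5, against 9.14% and 3.90%, and without WT replicate 3 also 2 and 5, against 8.28% and 3.59%. Leaving out single tt8-3 arrays gave 2 or 3 higher and 7 or 8 lower members, where 2304 to 2976 of the 19225 genes tested were higher and 1330 to 2061 lower.

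**Figure D5:**
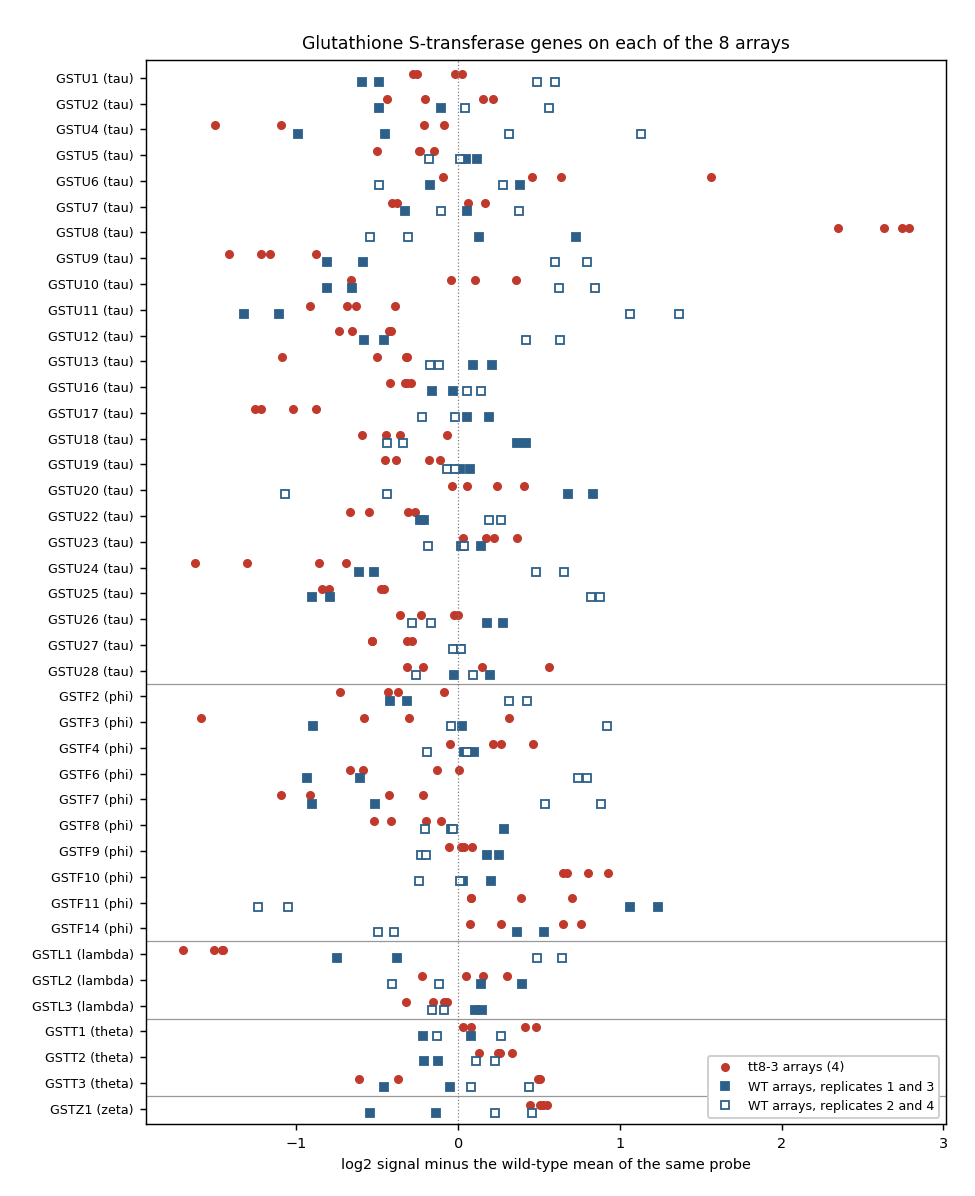
Each row is a GST gene, and each point is 1 array, as its log2 signal minus the mean of the 4 WT arrays for the same probe, with tt8-3 as red circles, WT replicates 1 and 3 as filled squares and WT replicates 2 and 4 as open squares. The 4 tt8-3 points of GSTU8 lie more than 2 log2 units above the WT mean, and for GSTU11 and GSTF11 the filled and open squares lie on opposite sides of tt8-3.

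Over single arrays, 2 members had all 4 tt8-3 arrays above all WT arrays and 9 had them all below, or 4.88% and 22.0%, against 19.7% and 13.4% of all genes. The 2 were GSTU8 and GSTF10. The 9 were GSTL1, GSTU9, GSTU17, GSTU22, GSTU24 and GSTU27, already called, and GSTU13, GSTU16 and GSTU19, which did not pass the test. GSTU19, a safener-induced tau GST, had levels of 5.23, 4.96, 5.30 and 5.02 in tt8-3, against 5.42, 5.34, 5.49 and 5.39 in WT. Its difference was -0.28 (SE 0.09, limma adjusted p = 0.083), and its 3 probes gave -0.28, -0.32 and -0.48. GSTU16 had -0.34 (limma adjusted p = 0.053). GSTU13, a GST of indole glucosinolate breakdown in pathogen defence, had -0.56 (limma adjusted p = 0.097) for its brightest probe, while its other probes gave 1.21 and -0.11, so its direction depends on the probe.

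A fit of the 8 single arrays with the replicate number as a block gave 3 higher and 10 lower members. The shares of all genes tested were 21.8% and 16.5%. This fit counted each array as a separate sample, although the design text names technical replicates, so its p-values may be too small. The pairing of arrays by number was itself chosen from correlations in the same data. The calls of GSTU24, GSTU25, GSTU12 and GSTU11 were lost (limma adjusted p = 0.083, 0.15, 0.20 and 0.42). GSTU5 (-0.28, adjusted p = 0.028), GSTU13 (adjusted p = 0.025), GSTU16 (adjusted p = 0.020), GSTU19 (adjusted p = 0.037) and GSTF8 (-0.31, adjusted p = 0.029) passed as lower in that limma fit, and GSTT1 (0.25, adjusted p = 0.041) as higher. GSTF8, whose promoter responds to hydrogen peroxide, was thereby the 1 phi gene called lower under the block, against 0 without it.

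The tau genes stand in runs along the chromosomes, and close copies may share probe signal, since probe sequences were not used here. GSTU24, GSTU25 and GSTU26 stand together on chromosome 1. All 3 had negative differences, 2 of them past the threshold, and GSTU26 had -0.16. The pair GSTU12 and GSTU11 were both called lower. In the run of 7 on chromosome 2, GSTU7 to GSTU1, 6 genes were tested and 0 called, with differences between -0.72 for GSTU4 and 0.64 for GSTU6. GSTU4 varied between slides, with levels of -3.23, -3.64, -2.22 and -2.35 in tt8-3, against -3.12, -1.82, -2.59 and -1.01 in WT. The run of 5 that holds GSTU23, GSTU22, GSTU21, GSTU20 and GSTU19 gave 1 call, GSTU22, among 4 tested genes. In the run of GSTF7, GSTF6, GSTF5 and GSTF4, 0 of 3 tested genes were called, and GSTF4 had 0.22.

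The theta and zeta genes did not pass the test. The theta genes, peroxisomal or nuclear peroxidase-type GSTs, had differences of 0.25 for GSTT1 (limma adjusted p = 0.40), 0.24 for GSTT2 (adjusted p = 0.12) and 0.0022 for GSTT3 (adjusted p = 0.997). GSTT3 lay at -3.46 and -3.22 on slide 1 and -2.35 and -2.34 on slide 2 in tt8-3, against -3.30 and -2.77, then -2.90 and -2.41, in WT. The difference was thus -0.30 on slide 1 and 0.31 on slide 2. GSTZ1, maleylacetoacetate isomerase, had levels of 0.64, 0.63, 0.67 and 0.57 in tt8-3, against -0.43, 0.35, -0.02 and 0.58 in WT. The tt8-3 arrays were even and level with the highest WT array. Its difference was 0.50 (SE 0.14, limma adjusted p = 0.065), and its second probe gave -0.51. Of the 13 tested members with several probes, 10 had probes of 1 sign.

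The pathway around the GSTs was read from lists of genes. Of 22 tested genes for glutathione synthesis, turnover and reduction, 1 was higher and 3 lower (median 0.11), against 15.7% and 11.0% of all genes. OXP1, the oxoprolinase that recycles glutathione, had levels of 0.45, 0.52, 0.45 and 0.59 in tt8-3, against -0.03, -0.32, 0.11 and -0.17 in WT (difference 0.60, limma adjusted p = 0.021). The lower ones were the glutathione reductases GR2 (-0.64, limma adjusted p = 0.027) and GR1 (-0.46, adjusted p = 0.036) and the plastid glutathione transporter CLT2 (-0.44, adjusted p = 0.039). GR1 had 1.22, 1.12, 1.09 and 1.05 in tt8-3, against 1.17, 2.09, 1.12 and 1.95 in WT, so that only the second WT arrays stood above every tt8-3 array. GSH1 and GSH2, which make glutathione, had 0.12 and 0.27 (limma adjusted p = 0.52 and 0.46).

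Of 9 tested ABCC transporters, which include the carriers of glutathione conjugates into the vacuole, 0 were higher and 5 lower (median -0.35). Among all genes tested, 15.7% were higher and 11.0% lower (median 0.01), and by position 0 of the 9 were called. ABCC10 was lower (-1.02, SE 0.10, limma adjusted p = 0.0084), with -1.82, -2.17, -1.84 and -2.16 in tt8-3 and -1.45, -0.66, -1.14 and -0.66 in WT, without overlap. ABCC3 had 0.95, 1.15, 0.94 and 1.27 in tt8-3, against 0.68, 3.36, 0.75 and 3.43 in WT. As in GSTU11, the second WT arrays were high and the first ones below tt8-3 (slide averages -0.98, limma adjusted p = 0.0074). ABCC6 (-0.69, limma adjusted p = 0.013) and ABCC2 (-0.36, adjusted p = 0.044) were also lower.

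Of 21 tested genes of the xenobiotic and oxylipin response outside the family, 3 were higher and 2 lower (median 0.04). The shares of all genes tested were 15.7% and 11.0%. In 5 of the 21, the second WT arrays lay more than 1 log2 unit above the first on both slides. Over all genes tested this held for 555 of 19225. UGT74E2, a glucosyltransferase induced by hydrogen peroxide that acts on an auxin, had 1.80, 1.48, 1.67 and 1.23 in tt8-3, against 1.18, 3.80, 0.98 and 3.71 in WT. CYP81D8, a cytochrome P450 induced by foreign chemicals, had 0.19, -1.11, 0.19 and -1.23 in tt8-3, against -0.48, 1.13, -0.65 and 1.12 in WT. For UGT74E2 all tt8-3 arrays lay between the pairs of WT arrays, and for CYP81D8 the first tt8-3 arrays did while the second lay below all WT arrays. Their slide averages gave -0.87 and -0.77 (limma adjusted p = 0.015 and 0.011). GRX480, a glutaredoxin that binds TGA transcription factors, was higher by 1.67 (limma adjusted p = 0.022), and the transcription factor ANAC102 by 0.80 (adjusted p = 0.011). GRX480 had 0.32, 1.07, 0.03 and 0.17 in tt8-3, against -1.54, -0.54, -1.94 and -1.08 in WT, with every tt8-3 array higher.

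Of 20 tested genes of sulfate assimilation and cysteine synthesis, which feeds glutathione, 1 was higher and 6 lower (median -0.13). Among all genes tested, 15.7% were higher and 11.0% lower. The 3 reductases of activated sulfate were lower, with -1.12 for APR1, -0.91 for APR2 and -0.90 for APR3 (limma adjusted p = 0.0054, 0.0077 and 0.010), as was the serine acetyltransferase SERAT3;2 (-0.90, adjusted p = 0.013). APR1 had -0.78, 0.56, -0.79 and 0.58 in tt8-3, against 1.71, 0.35, 1.67 and 0.33 in WT. The second tt8-3 arrays lay above the second WT arrays and the first ones far below the first WT arrays, so the split here was found in both lines and ran opposite ways. By position, 0 genes of these 4 lists were called in either direction. With an array or average left out, the calls of the genes named from them passed in 0 (ABCC2) to 11 (ABCC10 and GRX480) of the 12 fits.

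Lists of other tissues were read beside the family, since the whole seedling was extracted. The log2 of the summed scaled signals of 17 photosynthesis genes was 10.8 to 11.5 on tt8-3 arrays and 11.0 to 12.0 on WT arrays. In this list 0 genes were higher and 2 lower (median -0.41). The log2 of the summed root marker signals was 5.23 to 5.51 in tt8-3 and 4.50 to 5.34 in WT. Of the 12 tested root genes 1 was higher and 2 lower (median -0.08). Both lists stand against 15.7% higher and 11.0% lower among all genes. Such sums are set mostly by the brightest genes. RHD6, PLT1 and PLT2 of the root list were not tested. The part of either list in the GST differences was not tested.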

How the data were processed

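Total RNA of whole seedlings was measured on 8 one-colour arrays. Each scanner file gives linear intensity values per spot, which Agilent Feature Extraction 10.7.1.1 produced according to the submitters' processing notes. Per the file headers these are a background-subtracted, detrended processed signal, mean and local background signals, and 0 or 1 flags. Values on the log2 scale in the deposited table served as an alternative. They matched the scaled signals below after each probe's slide median was subtracted (r of 0.999999 or more on each array). Other steps are not given in the sources used here.

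Levels are log2 ratios of the processed signal to the 75th percentile of the array. Outlier spots were left out (4 to 23 per array), none was saturated, and repeated spots were averaged. Probes were named through the transcript accession in the gene table (assembly TAIR10.1, names and neighbours only, up to 3 other genes between): 34358 of 43603 probes were named and 9245 were not. For the 6940 genes with several probes the brightest on average was used. The share of probes well above background was 70.7% to 77.1% on tt8-3 arrays and 68.8% to 71.5% on WT arrays, and the number of arrays limits the precision.

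Slide averages were tested with limma 3.58.1 (lmFit, eBayes) in R 4.3.3, adjusted over 19225 genes at 0.05. The p-values measure the spread between slide averages, which may be technical. Alternatives were averaging by position, slide or replicate number as a block, the averaged unit as a random block, normexp background correction (offset 50), quantile normalization, median scaling, no filter on dim probes, the median over probes, and leaving out each array and slide average. Same-numbered arrays of both lines deviated together (correlations 0.277, 0.343, 0.312 and 0.383 for replicates 1 to 4), so the label numbers were taken to pair the arrays in the fit with the replicate block. The slide averages were tested without that pairing. Fits of single arrays with slide or replicate number as a block counted technical replicates as separate samples. The steps were tested on simulated data. Every member that passed the filter could be named, with up to 4 genes of the smallest p from each pathway list and TT8. Outside that rule, GSH1, GSH2, ATGSTF13, RHD6, PLT1 and PLT2 and the members that failed the filter were named too. The members and lists were chosen with earlier results of these data known. Figures were drawn with matplotlib 3.10.9 in Python 3.11.15.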

Additional observations from a re-analysis of the deposited data

How the results depend on the processing

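The 2 higher and 9 lower GST genes (1 and 8 in tau, 1 and 0 in phi, 0 and 1 in the other classes), and the 3027 higher and 2106 lower genes in all, moved with the processing, as follows. Averaging by position gave 1 and 0 (1 and 0, 0 and 0, 0 and 0), with 526 and 73 in all. Slide as a block on the averages gave 9 and 20 (2 and 14, 4 and 5, 3 and 1), with 6491 and 5902, and the deposited value table, already centred by slide, gave 9 and 23 (3 and 16, 3 and 5, 3 and 2), with 7185 and 6704. Normexp gave 0 and 0 in every class, with 91 and 14 in all. Normexp without the spots of flagged background, added after seeing the data, left 5 tau genes, 1 phi gene and 0 other genes lower, with 1886 and 1544 in all. Without a filter 1 member was higher, 5 tau genes were lower and 0 phi genes higher, with 1580 and 826 in all. Quantile normalization gave 2 phi genes higher and 1 lower. Median scaling gave 2 and 13 members with 2 phi genes lower, and 2155 and 2636 genes in all. It put the median of all genes at -0.09, where the 75th percentile put it at 0.01. The median over probes gave 14 lower members, with 2 and 2 phi genes and 2 other genes lower. With the replicate block 1 phi gene was lower and 1 other gene higher, with 3173 lower genes in all, and slide as a block on single arrays and the random block (consensus correlation -0.207) each gave 1 other gene higher. A negative correlation means that, over both lines together, arrays of an averaged unit were less alike than other arrays of their line. WT replicates 1 and 3 alone gave 5 higher members (2 tau, 2 other) and 1 phi gene lower. WT replicates 2 and 4 alone gave 4 higher and 14 lower members (phi 3 and 3).

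All 11 calls were kept under quantile normalization, median scaling and the median over probes. They were also kept under the deposited values and slide as a block on the averages. These 2 settings took out slide differences and tested the calls weakly. They called 7185 and 6491 genes higher in all, and 6704 and 5902 lower. Of the 11 calls, 8 remained under the random block. Under the replicate block, slide as a block on single arrays and normexp without flagged spots, 7 remained. Without a filter 6 remained, by position 1 and with normexp 0. The 12 fits with an array or average left out gave 1 to 3 higher and 2 to 8 lower members (tau 1 to 2 and 1 to 7, phi 0 to 2 and 0 to 2, other classes 0 to 1 and 1), and 1472 to 2976 higher and 576 to 2061 lower genes in all.

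Directions turned as follows. Against WT replicates 1 and 3 alone GSTF7 had 0.044, GSTF6 0.42, GSTU25 0.21, GSTF14 -0.0081, GSTU28 -0.042, GSTU11 0.56, GSTU10 0.67, GSTU20 -0.59, GSTU2 0.23, GSTU1 0.41, GSTF9 -0.19, GSTF11 -0.84 and GSTL2 -0.20. Against WT replicates 2 and 4 alone GSTU18 had 0.024, GSTU26 0.072 and GSTT3 -0.25. With the median over probes GSTU13 had 0.50, GSTZ1 -0.0049 and GSTF9 -0.037. Normexp gave 0.39 for GSTU10, 0.14 for GSTU2, -0.11 for GSTF9 and 0.070 for GSTL1, and without flagged spots -0.094 for GSTU28 and -0.069 for GSTT3. Quantile normalization gave -0.11 for GSTU28 and -0.092 for GSTT3, and median scaling -0.060 for GSTU28, -0.082 for GSTF9, -0.032 for GSTL2 and -0.10 for GSTT3. With arrays or averages left out, GSTF6 ranged from -0.78 to 0.088, GSTU28 from -0.18 to 0.26, GSTU10 from -0.48 to 0.35, GSTU20 from -0.27 to 0.60, GSTF3 from -1.08 to 0.0057, GSTU7 from -0.39 to 0.11, GSTU2 from -0.32 to 0.18, GSTU1 from -0.41 to 0.14, GSTF9 from -0.092 to 0.13, GSTF11 from -0.26 to 0.89, GSTL2 from -0.087 to 0.23 and GSTT3 from -0.50 to 0.50. The cause of these changes was not tested. GSTL1, GSTU10 and GSTU28 had dim probes, with mean log2 levels of -4.73, -4.43 and -4.60. GSTU23 was dim too (-4.24), and its direction did not turn.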

Other observations

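ATGSTF13, a phi gene outside the naming rule, was well above background on 3 tt8-3 arrays and 0 WT arrays. Its log2 levels were -7.42, -5.90, -5.36 and -5.73 in tt8-3, against -7.92, -8.57, -7.23 and -8.06 in WT. GSTZ2 was well above background on 1 tt8-3 array and 0 WT arrays, with -7.45, -6.93, -7.42 and -6.62 in tt8-3, against -7.50, -7.39, -8.04 and -8.18 in WT. Neither gene was tested. Of the 82 sets of 4 arrays checked, 1 per tested GST gene and line, 0 held an array set apart from the other 3 by Dixon's criterion.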
